A study of Mus musculus with 18 samples.

Results

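Chromatin accessibility was compared between wild-type (WT) mouse CD4 T cells labelled Teff and WT cells labelled Tcmp, both 72 h after activation, with 3 samples of each label. The abbreviations stand as the labels give them, without their meaning, and the sources used here do not say how the cells of each label were obtained. All groups of the series were grown from naive CD4 T cells that were activated through CD3 and CD28 with coated beads in the presence of IL-2, IL-12 and an antibody against IL-4, so Teff and Tcmp cells share this Th1 culture. The series also holds Id3 knockout (Id3-KO) cells with the same labels at the same time, 3 samples of each, and Th1 cells of both genotypes at 24 h, which makes 18 samples in 6 groups. The members are the 65983 regions that the authors' deposited table lists under the WT Teff against Tcmp contrast, of 395898 rows over 6 contrasts. They were chosen by the name of the contrast alone. The contrast was read as Teff over Tcmp, the order of its name, so a negative log2 fold change means lower accessibility in Teff cells.

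ATAC-seq uses a transposase that cuts and tags DNA not packed in nucleosomes, so reads gather at active promoters and enhancers. When a naive CD4 T cell is activated, its chromatin opens at cytokine and effector genes, and the daughter cells can then follow effector or memory paths that differ in which of these elements they keep accessible. IL-12 with IL-4 blocked steers the cells to the Th1 fate, marked by the transcription factor T-bet and the cytokine interferon gamma. Id3, absent in the knockout cells, holds back E proteins, transcription factors that bind E-box motifs in lymphocyte enhancers.

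The table describes the genome in short overlapping windows, 409588 in all, merged into regions of 300 to 1100 bp with a median of 6 windows (range 1 to 16). Each region carries a region p-value, the log2 fold change of its best window, here called the listed window, and the number of its windows that were higher or lower. The p-value of the listed window was derived from the region p-value. In the WT contrast all 65983 of 65983 regions had their smallest p-value in their first window, and the window p-value did not fall at any step between the 35776 regions in which it could be read. The statistics therefore follow the order of the rows and were not taken as belonging to the region or gene beside them. They were read as a single ranking of all windows by p-value, in which the running number of a window is its rank. This reading was not shown directly, and every count of windows below rests on it. No gene can be named as changed, and no sequence is shown for the same reason.

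The positions of the regions do not depend on this order. Of 13 T cell marker genes, 13 had a region at the promoter, among them Cd3e and Cd3g, which encode chains of the T cell receptor complex, and Cd4, the coreceptor of helper T cells. Of 6 Th1 genes, 5 did, including Ifng, which encodes interferon gamma, and Il12rb2, which encodes a chain of the IL-12 receptor. The exception was Tbx21, the gene of T-bet, with 4 regions that did not include its promoter. Promoter regions were also listed at 3 of 5 myeloid genes (Itgam, Cebpa and Fcgr3) and 2 of 4 erythroid genes (Gata1 and Klf1). They were not listed at Lyz2 and Csf1r, of myeloid cells, or at the globin genes Hba-a1 and Hbb-bs. The list of regions is the same for every contrast, so it cannot say whether Teff and Tcmp cells differ in any of these markers. The table holds no value for a single sample, so the labels of the samples could not be checked either, and fewer accessible cells cannot be told apart from less access per cell.

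As deposited, most windows had a lower signal in Teff than in Tcmp cells. This direction depends on how the libraries were scaled, which the sources used here do not state. Of the 65983 listed windows 57956 (87.8%) had a negative log2 fold change, with a median of -0.44, a 1.35-fold lower signal in Teff cells. An adjusted p of 0.05 (Benjamini-Hochberg) was met by 30355 windows, 7.41% of the 409588. By region, 1534 of 65983 (2.32%) were past the same threshold in the authors' deposited table, 1419 (2.15%) lower and 115 (0.174%) higher in Teff cells, but these are not counts of changed regions because of the row order. At an unadjusted p of 0.05 the number of windows was 113809 (27.8%). The 3 samples of each label are not stated to come from separate animals or cultures, so the spread behind the p-values may be technical. It is not known here whether that spread was taken from these samples alone or from all groups of the series.

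The numbers of higher and lower windows per region gave the direction of nearly every window past the threshold, beyond the listed ones. They were filled in for all windows of each of the 7783 regions with a region p of at most 0.05, and in 0 other regions. Of these regions the first 4969 formed an unbroken run over the first 30721 windows of the ranking. In that run 29180 windows (94.98%) were lower and 1541 (5.02%) were higher in Teff cells. The listed windows past the threshold, 4912 in number, gave a closely similar split, with 94.7% lower (95% Wilson interval 94.0 to 95.3). Such intervals cover counting error alone and are too narrow, because neighbouring windows overlap, and the counts are not counts of separate elements.

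The windows higher in Teff cells were not spread evenly along the ranking. The first 68 windows were all lower in Teff cells. Of the 44 windows in regions that begin at ranks 56 to 99, 7 were higher (15.9%). The densest group of higher windows came next, with 31 of the 83 windows at ranks 100 to 177 (37.3%) and 42 of the 138 at ranks 178 to 315 (30.4%). Over the fixed bins of rank, the share was 6.93% up to rank 100 (7 windows), 18.8% past rank 100 and up to rank 1000 (169 of 900 windows), 5.64% from there to rank 10000 (508 of 9000) and 4.18% from there to rank 30000 (837 of 20004). The share of higher windows was therefore low at the very top, highest shortly after it and low again near the threshold. Overlapping windows may have similar p-values and hence neighbouring ranks, which was not measured. The number of separate elements behind the group at ranks 100 to 315 was not tested.

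**Figure D1:**
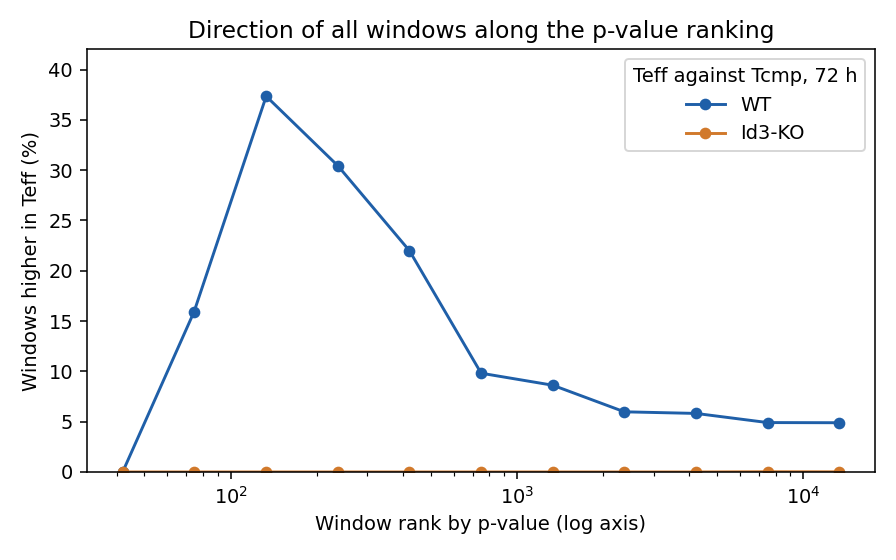
Share of windows higher in Teff than in Tcmp cells (vertical axis, percent) against window rank by p-value (horizontal axis, log scale), from the deposited counts of higher and lower windows per region; each point is a group of regions by their first rank, with at least 26 windows. In WT (blue) the share was 0% at ranks 32 to 55, reached 37.3% at ranks 100 to 177 and was 4.90% at ranks 10000 to 17782, while in Id3-KO (orange) it was at most 0.0228%.

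The leading windows differed by more than 4-fold between the labels. The first 5 listed windows, at ranks 1, 8, 11, 16 and 23, had log2 fold changes of -2.23, -2.16, -2.14, -2.25 and -2.49 in the authors' deposited table, and the window at rank 1 had a p-value of 2.47e-14. All 5 were lower in Teff cells, by 4.40-fold to 5.63-fold. The first 5 listed windows that were higher in Teff cells, at ranks 102, 123, 134, 199 and 206, had log2 fold changes of 2.28, 1.89, 1.70, 1.77 and 2.09 in the authors' deposited table. The window at rank 102 was 4.84-fold higher, with an adjusted p of 5.44e-07. A standard error was recovered for each window from its own log2 fold change and p-value by a normal approximation. It was 0.29 log2 units for the window at rank 1 and 0.35 for that at rank 102.

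The size of the difference fell steadily with rank. The 14 listed windows of ranks 1 to 100 had a median log2 fold change of -2.16, from -2.49 to -2.03, all lower in Teff cells. The median was -1.72 in the next bin, up to rank 1000 (144 windows), -1.26 up to rank 10000 (1455 windows) and -0.97 up to rank 30000 (3242 windows). The last listed window inside the threshold, at rank 30355, had a log2 fold change of -0.91 in the authors' deposited table, and the next one outside, at rank 30362, had -1.05.

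Beyond the threshold most windows still lay on the side of lower accessibility in Teff cells. The median was -0.73 between ranks 30000 and 100000, where 96.4% of 11337 listed windows were lower, and -0.52 between ranks 100000 and 200000, where 95.5% of 16129 were. Between ranks 200000 and 300000 the median was -0.36 and 90.8% were lower. Among the last 17560 listed windows, past rank 300000, 70.7% (95% Wilson interval 70.0 to 71.3) were lower, with a median of -0.12. So windows that a test of single windows could not tell from no change were also mostly lower in Teff cells, and the excess of lower windows was smallest where the p-values were largest, which the ranking itself favours because a p-value near 1 requires a fold change near 1.

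At the same rank the windows higher in Teff cells mostly had larger fold changes than the lower ones. Between ranks 100 and 1000 the medians were alike, 3.42-fold for the 21 higher and 3.43-fold for the 123 lower listed windows. Between ranks 1000 and 10000 they were 2.91-fold for the 99 higher and 2.43-fold for the 1356 lower windows, and between ranks 10000 and 30000 they were 2.66-fold for 141 higher and 1.97-fold for 3101 lower windows. Further on, between ranks 100000 and 200000, the medians were 1.77-fold for 725 higher and 1.44-fold for 15404 lower windows. Windows of like rank have like p-values, so the larger fold goes with a larger recovered standard error: 0.43 log2 units for the higher and 0.30 for the lower windows between ranks 10000 and 30000, and 0.31 for both between ranks 100 and 1000. Between ranks 1000 and 200000 the higher windows thus had the larger recovered standard error, which at like p-values restates their larger fold. Past rank 300000 the higher windows had the smaller fold, 1.10-fold against 1.14-fold. Read depth per window is not in the table, so its part in this was not tested.

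**Figure D2:**
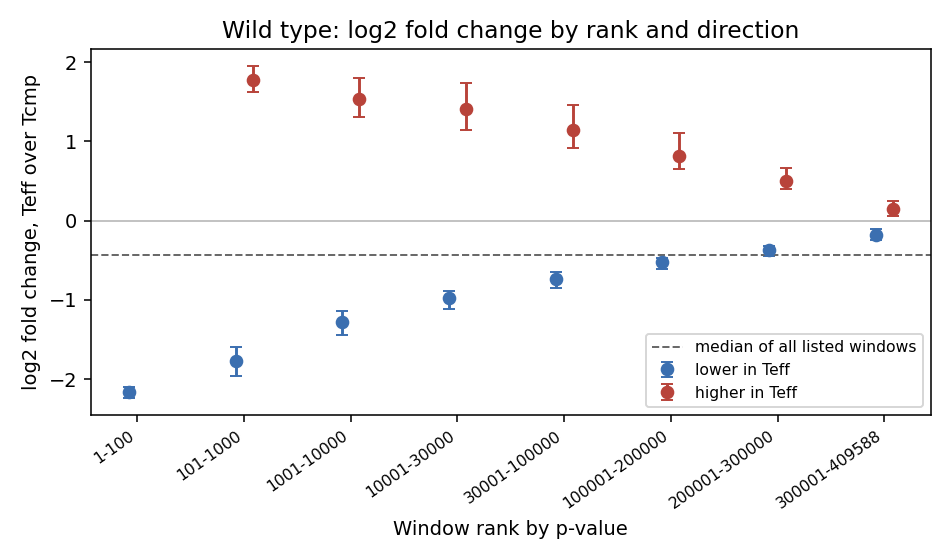
Log2 fold change of Teff over Tcmp in WT cells (vertical axis) of listed windows in 8 fixed bins of rank (horizontal axis), shown apart for windows lower (blue) and higher (red) in Teff cells. Points are medians and bars span the quartiles over windows; the dashed line is the median of all listed windows, -0.44, and the higher windows lie further from 0 than the lower ones in the bins between ranks 1000 and 300000.

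The greater part of the listed windows lay close to a common offset. Their quartiles were -0.64 and -0.23, so that both were below 0, and 53742 of them (81.4%) lay within 0.5 log2 units of the median. Scaled as for a normal distribution, the interquartile range of 0.42 corresponds to an SD of 0.31 over windows. The recovered standard error of a single window had a median of 0.30 (quartiles 0.27 and 0.35) over listed windows up to rank 200000, where it can be read with some precision, and a median of 0.26 if a t distribution with 12 degrees of freedom was used. The spread of the windows about the offset was close to this median error by the first approximation and above it by the second. The spread covers all listed windows and the error only those up to rank 200000, so the comparison is of unlike sets. Expressed in units of its own error, the listed window had a median of -1.38 and quartiles of -2.01 and -0.67, which correspond to an SD of 1.00. These units were counted from 0, so this SD is not a spread about the offset alone. The sources used here do not say how the authors scaled the libraries, which means that a scaling difference between libraries and a uniform loss of accessibility in Teff cells cannot be told apart.

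The tails about this offset were uneven, with the longer tail on the side of higher accessibility in Teff cells. More than 1 log2 unit above the median lay 2020 listed windows (3.06%) and more than 1 unit below it 827 (1.25%), 2.44 times as many above. Beyond 2 units there were 256 above and 33 below. The 99th percentile lay at a log2 fold change of 1.11, which is 1.55 from the median, and the 1st percentile at -1.50, which is -1.06 from it. As deposited, with 0 as the centre, the sides change places at 1 unit, with 835 listed windows above 1 and 4302 below -1. They also change places at 2 units, with 88 above 2 and 115 below -2.

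Fewer windows of the upper than of the lower tail beyond 1 log2 unit passed the deposited threshold. Of the 827 listed windows in the lower tail 658 (79.6%) were past it, and of the 2020 in the upper tail 262 (13.0%) were. The tails are counted from the median and the calls from 0, so the lower tail begins further from 0, which by itself favours calls there. All 262 listed windows that were called higher in Teff cells lay in this upper tail. The threshold largely fixes this, because a called window must lie well above 0. A window needs to rise by 0.44 log2 units above the offset before its deposited fold change reaches 0. Among windows up to rank 200000, the recovered standard error had a median of 0.48 log2 units in the upper tail beyond 1 unit and 0.41 in the lower one. This rank limit leaves out part of the upper tail, since between ranks 200000 and 300000 the higher windows had an upper quartile of 0.67. Windows left out have large errors for their fold change, so the 0.48 may be too low. Beyond 2 units the shares past the threshold were closer, 115 of 256 windows above (44.9%) and 17 of 33 below (51.5%), and the lower side had the larger recovered standard error, 0.98 against 0.75. The most extreme windows were imprecise: the largest log2 fold change in the authors' deposited table was 4.96, at rank 5880, with a recovered standard error of 1.24, and the smallest was -3.75, at rank 41897 and not past the threshold, with 1.40.

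**Figure D3:**
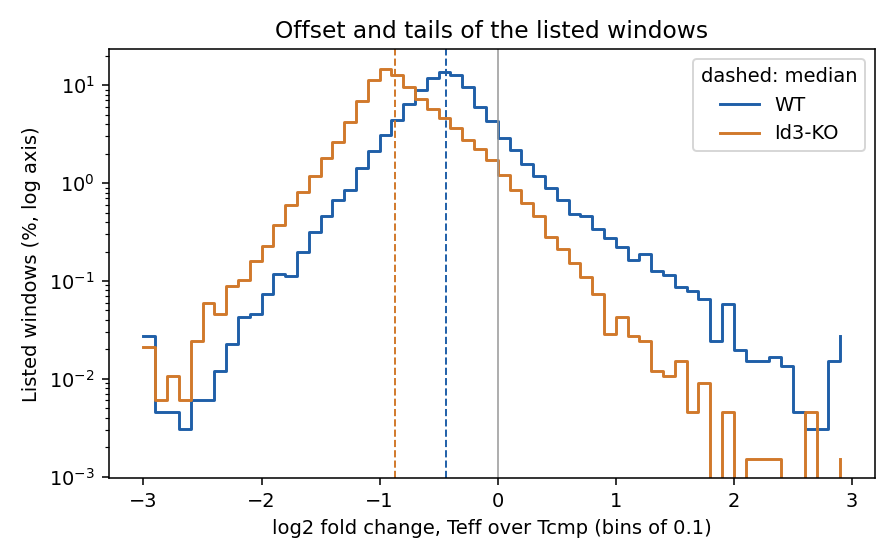
Share of listed windows (vertical axis, percent, log scale) by log2 fold change of Teff over Tcmp (horizontal axis, bins of 0.1; values beyond 3 in size are counted in the end bins), for WT (blue) and Id3-KO (orange). Dashed lines mark the medians, -0.44 in WT and -0.87 in Id3-KO, and in each genotype the right side falls off more slowly than the left.

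With the offset removed, 644 listed windows (0.976%) differed from it at an adjusted p of 0.05 by the normal approximation, of which 404 (62.7%) were above it, with a median distance of 1.74 log2 units, and 240 below it, with a median distance of -1.30. The side that held the majority depended on the approximation, since the t distribution gave 897 windows with 34.0% above. Of the 404 windows above the offset, 261 had also been past the threshold in the deposited contrast. All 240 windows below the offset had been past it too, which subtracting a negative median makes certain.

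The Id3-KO contrast of the same labels, which shares no sample with the WT one, had a larger offset and almost no higher windows among those with small p-values. Its median was -0.87 (1.82-fold lower in Teff cells), 261368 windows (63.8%) met the adjusted p of 0.05, and by region 29058 (44%) did in the authors' deposited table, 29052 (44%) lower and 6 (0.00909%) higher in Teff cells. The first 9495 windows of its ranking were all lower in Teff cells, and in the unbroken run of 177971 windows 54 (0.0303%) were higher, against 5.02% of the 30721 in WT. Between ranks 100 and 1000, 0 of 900 windows were higher in Id3-KO and 169 of 900 in WT. The first listed window higher in Teff cells stood at rank 23918 in Id3-KO (log2 fold change 2.97 in the authors' deposited table) and at rank 102 in WT. The table holds no test of the difference between the genotypes, and ranks of the 2 contrasts are not the same windows.

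Measured from each contrast's own median the genotypes were more alike. More than 1 log2 unit above the median lay 2.63% of the listed windows in Id3-KO and 3.06% in WT, and more than 1 unit below it 0.835% and 1.25%. Further out they differed more, with 72 windows above 2 units in Id3-KO and 256 in WT. A larger offset moves the upper tail toward 0, and of the 1735 windows in the upper tail of Id3-KO 50 (2.88%) were past the threshold. By the normal approximation the recovered standard errors were similar, with a median of 0.28 in Id3-KO and 0.30 in WT. With the t distribution the medians were less alike, 0.21 in Id3-KO and 0.26 in WT. In units of its own error the spread over windows corresponded to an SD of 1.34 in Id3-KO and 1.00 in WT. These units were counted from 0 and not from the offset, so a larger offset can widen this spread. In log2 units the interquartile range corresponded to an SD of 0.33 in Id3-KO and 0.31 in WT.

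A small set of windows could be compared between genotypes one by one. If every contrast comes from the same fit, the Id3-KO value minus the WT value of Teff against Tcmp must equal the knockout effect in Teff minus that in Tcmp cells, and the table prints enough digits to search for this sum. After the knockout effects had been matched through the contrast that pools both labels, 73 windows fulfilled the relation within 2e-14 with no value in common with another match, while 3 searches with a shifted target found 0. In these windows the WT log2 fold change had a median of -0.47 (quartiles -0.67 and -0.18), close to that of all listed windows, and the Id3-KO one had -0.88 (quartiles -1.03 and -0.61). The Id3-KO value was the lower one in 62 of 73 windows (84.9%), with a median difference of -0.43 (quartiles -0.73 and -0.10). The medians of all listed windows, -0.44 in WT and -0.87 in Id3-KO, lay about as far apart. No offset was removed here, so a shift common to all windows cannot be told apart from differences particular to these windows.

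Of the 73 windows 59 were lower in Teff cells in both genotypes, and 12 were higher in WT but lower in Id3-KO. The 12 were not past the threshold in WT, with Benjamini-Hochberg adjusted p from 0.217 to 0.959, so their signs in WT are uncertain. All signs were taken as deposited, with the larger offset of Id3-KO included. A single window was higher in both, with log2 fold changes of 0.54 in WT and 0.34 in Id3-KO, and another was lower in WT and higher in Id3-KO, with -0.48 and 0.63. The window with the largest WT value had 1.39 in WT and -0.37 in Id3-KO, and neither was past the threshold. Across the 73 windows the correlation of the values was 0.35 (Pearson) and 0.37 (Spearman), a description over windows that all come from the same libraries of each genotype. The threshold was passed by 5 of the 73 in WT (6.85%, beside 7.41% of all windows) and by 40 in Id3-KO (54.8%, beside 63.8% of all windows), shares near or below those of windows in general. The 5 were among the 40 and lower in Teff cells in both genotypes. These 5 had log2 fold changes of -1.27, -1.17, -0.96, -0.95 and -0.86 in WT and -0.97, -1.27, -1.45, -1.23 and -0.91 in Id3-KO.

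**Figure D4:**
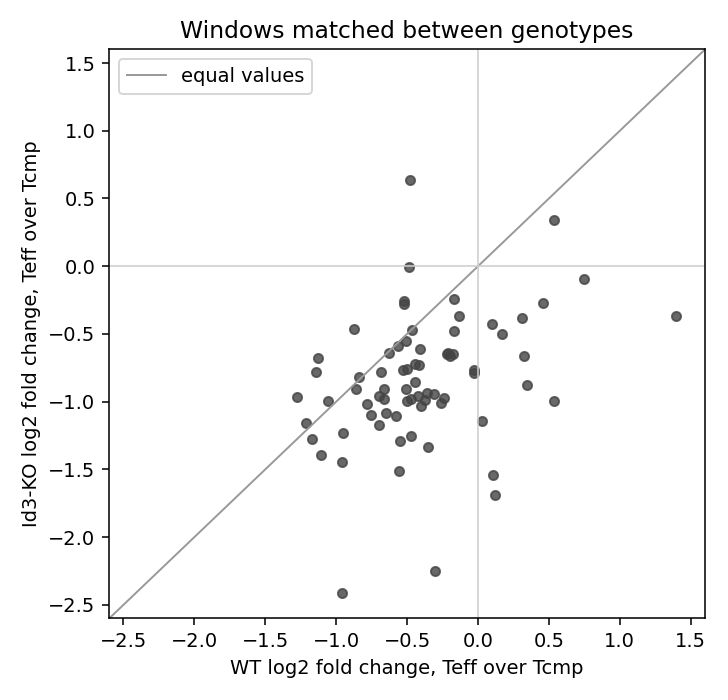
Log2 fold change of Teff over Tcmp in WT (horizontal axis) and in Id3-KO cells (vertical axis) of the 73 windows matched by exact sums; each point is a window and the diagonal marks equal values. Of the 73 points 62 lie below the diagonal, and 12 lie right of 0 in WT and below 0 in Id3-KO. The offsets of the contrasts were not removed.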

How the data were processed

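Per the submitters' processing notes, Trim Galore, BWA, Picard, edgeR and the build GRCm39 were used; their versions, roles and order are not stated there. The deposited table holds the authors' comparisons: a log2 fold change, a p-value and an adjusted p-value per region, with whole numbers of windows. Library depth is unknown. The members and lists were chosen with earlier results of these data known.

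The p-value of a window was obtained by dividing the region p by how many windows the region has. It was interpolated by rank where the region p was 1. The Benjamini-Hochberg criterion used the rank among 409588 windows. The standard error of a window was taken as the size of its log2 fold change over the normal quantile of its p-value; after the median was subtracted, a new p-value was taken from it and adjusted over the listed windows. Windows were matched within a tolerance of 2e-14, and ambiguous matches were dropped. Intervals are Wilson intervals at 95%. The settings for direction counts in an unbroken run and for the finer rank groups were added after the data were seen. No gene was named for a value; genes appear as markers, by position, and 1 marker list is not reported here. The recovery of window statistics and the matching were also run on simulated data. These data were built with the assumed rank order and sums, so the runs cannot show that the deposited values follow them. Python 3.11.15, numpy 2.4.6, pandas 2.3.3, scipy 1.17.1 and numba 0.67.0 were used.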

Additional observations from a re-analysis of the deposited data

How the results depend on the processing

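No paired analysis was possible because single samples have no values in the file; leaving out a replicate, a replicate block, other normalizations and filters on low counts were not run for the same reason. At an adjusted p of 0.01 the counts fell to 639 regions, 9809 windows and, with the offset removed, 325 listed windows, and the share of passed listed windows lower in Teff became 92.5%. That share was 92.2% with a minimum log2 fold change of 1 in size. By the counts per region the share lower was 95.5% over all counted regions and 94.97% over regions wholly within the threshold rank. The offset was -0.41 as a mean, -0.42 as a mode and -0.26 over listed windows past rank 200000, which holds windows with small fold changes by construction. The upper side held 71.0% of the windows beyond 1 log2 unit from the median, 68.4% with the mode as centre and 16.3% with 0 as centre, which turns the direction. The recovered standard error was 0.26 instead of 0.30 with the t distribution. Weighting by windows per region, bins of equal size, a recomputed adjustment, adjustment over listed windows alone and a wider matching tolerance kept each result they were run on within its interval or within 1.5 times.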

Other observations

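In WT, of the 7075 counted regions with several windows, 1551 held a window higher in Teff cells, and in 4 of these all windows were higher, although windows of a region overlap in the genome. In Id3-KO the numbers were 88 of 32473 and 0. The middle window of the WT ranking had a p-value of 0.152, and that of the Id3-KO ranking 0.00752.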
